A study of Saccharomyces cerevisiae with 27 samples.

Results

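Transcripts of 31 genes of the tricarboxylic acid (TCA) cycle, the glyoxylate cycle and the pyruvate dehydrogenase complex were followed in yeast held at 41 °C for up to 360 min. The genes were chosen by symbol from a list of the enzymes of these pathways, including malic enzyme and the pyruvate carboxylases, and each needed a probe set that named that gene and no other. All 31 were found, each with 1 probe set, among 5656 genes tested on the array. No filter on low values was applied, so all 31 stayed in every count below.

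In the TCA cycle, acetyl-CoA joins oxaloacetate to form citrate, which is oxidised in steps back to oxaloacetate while reducing power goes to the respiratory chain. The pyruvate dehydrogenase complex supplies acetyl-CoA inside mitochondria, and the glyoxylate cycle bypasses the decarboxylating steps so that cells can build sugars from acetate or ethanol. Yeast has several isozymes for citrate synthase, NADP isocitrate dehydrogenase and malate dehydrogenase that differ in their compartment, and growth on glucose is known to repress many of these genes.

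The strain was Saccharomyces cerevisiae X2180-1A in every group, with no mutation or added agent named in the labels. Cultures of 500 ml grew in aerated fermentors on minimal medium with 2% glucose. At an OD600 of 0.50 the stressed cultures went from 28 °C to 41 °C, reached within 5 min, and were sampled after 10, 30, 60, 120, 240 and 360 min. Control cultures kept at 28 °C were sampled at 0, 120 and 240 min, at an OD600 of 0.50, 0.88 and 1.5. Each of the 9 groups had 3 arrays, labelled as biological replicates, and a culture was sampled repeatedly.

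Heat at 10, 30 and 60 min was compared with the control at 0 min, heat at 120 min with the control at 120 min, and heat at 240 and 360 min with the control at 240 min. The heat times within 1 h therefore share control arrays, as do the last pair, and their changes are not independent. Signals below are the deposited intensities. Changes are log2 folds ± SE after quantile normalization, from limma, with p adjusted over all 5656 genes by the Benjamini-Hochberg method and a threshold of 0.05.

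The heat samples carried strong heat shock transcripts. The signal of HSP104, a disaggregase, was 773 to 1239 on the 9 control arrays and 4995 to 9142 on the 18 heat arrays. Markers of mating type gave no clear picture. Of 4 genes specific to mating type a, the type X2180-1A is known for, STE2 lay at 47.4 to 85.8, BAR1 at 39.6 to 54.3, MFA1 at 103 to 148 and MFA2 at 395 to 478 on control arrays. Of the 2 measured genes specific to type alpha, STE3 lay at 29.6 to 51.9 and SAG1 at 486 to 635 there. Array quality moved with temperature. The mean of 19 non-yeast probe sets was 66.2 to 81.4 on control arrays, 47.3 to 74.2 at 10 min and 35.4 to 52.3 later in heat. The ratio of 3′ to 5′ signal of SRB4 was 1.98 to 2.81 on control arrays, 2.97 to 3.39 at 10 min and 3.44 to 5.62 from 30 min on. It thus lay above all control arrays already at 10 min. That of SPT15 overlapped, with 2.15 to 2.76 on control arrays, 2.31 to 3.60 at 10 min and 2.24 to 4.54 later. That of ACT1 moved little (0.90 to 1.01, 0.95 to 1.03 and 1.00 to 1.19 in the same order). The part of these shifts in the members' changes was not tested. A fit with the non-yeast signal as a term was run, and some of the calls that end under it are named below. With that term 21 of 26 calls held at 10 min, 20 of 23 at 30 min and 15 of 19 at 60 min. Later 13 of 21 held at 120 min, 13 of 24 at 240 min and 13 of 23 at 360 min. The non-yeast signal did not overlap between control arrays and heat arrays after 10 min, so that fit cannot fully separate it from temperature. Among the members, 5 had arrays on which they lay below the highest non-yeast probe set, namely CIT3 on 21 of 27 arrays, IDP3 on 17, MLS1 on 11, ICL1 on 5 and IDP2 on 1.

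At 10 min of heat 26 of the 31 genes passed the test, 16 higher and 10 lower, where 72.5% of all tested genes passed, 33.8% higher and 38.8% lower. At 30 min 23 passed, 14 higher and 9 lower, against 80.9% of all genes, 40.7% higher and 40.2% lower. At 60 min 19 passed, 10 higher and 9 lower, against 69.2%, with 31.8% and 37.4% in these directions. At 120 min 21 passed, 11 higher and 10 lower, against 68.9% (33.3% and 35.6%). At 240 min 24 passed, 14 higher and 10 lower, against 61.3% (28.3% and 33%). At 360 min 23 passed, 12 higher and 11 lower, against 65.8% (31% and 34.8%). Of the members 83.9%, 74.2%, 61.3%, 67.7%, 77.4% and 74.2% thus passed in the order of time. These shares lay above the whole array at 10, 240 and 360 min and below it at 30, 60 and 120 min. Whether they differ from the whole array was not tested, and genes moved in both directions at every time. The median log2 fold of the 31 genes was 0.13, 0.11, -0.00, 0.10, 0.05 and 0.04 in the order of time, against -0.04, 0.00, -0.04, -0.01, -0.03 and -0.03 for all tested genes. This median depended on the scaling: with array medians made equal it was 0.13, -0.06, -0.11, -0.13, -0.17 and -0.20, against -0.05, -0.04, -0.05, -0.04, -0.04 and -0.05 for all genes.

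Changes of at least 2-fold that passed the test were found for 4, 4, 5, 2, 2 and 3 members from the earliest to the latest heat time, where 15.6%, 27.1%, 9.26%, 8.08%, 6.14% and 6.67% of all genes changed as much. They came from 7 genes, or 22.6% of the members, where 32.7% of all genes changed as much at least once. MDH2, IDP2 and SDH4 were higher, and IDP1, MAE1, PYC1 and LSC2 were lower. These are fitted folds, which come out too small for dim genes because of an offset added before the log. The dim genes CIT3 and IDP3 are not among the 7. The mean deposited signal of CIT3 was 165 at 360 min against 34.9 in the controls at 240 min. That of IDP3 was 199 at 30 min against 78.1 at 0 min. Over the 6 comparisons of heat with control, CIT3, IDP2, SDH2, SDH4 and MDH2 rose in all 6, which 13.7% of all genes did, and IDP1, LSC1, PYC2 and MAE1 fell in all 6, which 14% did. CIT2, IDH1, MDH3 and ICL1 passed the test in both directions at different times (19.8% of all genes). Of the others 15 passed only as higher (36.7%) and 12 only as lower (41.4%), so that all 31 passed at least once, as did 97.8% of all genes. The members' shares for these 5 patterns were 16.1%, 12.9%, 12.9%, 48.4% and 38.7% in the order given. Whether these shares differ from the whole array was not tested, and the comparisons share control arrays.

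The split into higher and lower calls depended on the scaling of the arrays. On the deposited scale it was 11 and 10 at 10 min, 11 and 12 at 30 min, and 8 and 12 at 240 min. With array medians made equal it was 11 and 12 at 30 min, 7 and 14 at 60 min, 8 and 13 at 120 min, 7 and 13 at 240 min and 4 and 14 at 360 min. The median log2 fold of all genes at 120 min was 0.11 on the deposited scale, against -0.01 after quantile normalization. Under every alternative run that kept the gene, including each array left out in turn, 18 of the 26 calls held at 10 min, 17 of 23 at 30 min, 12 of 19 at 60 min, 11 of 21 at 120 min, 9 of 24 at 240 min and 7 of 23 at 360 min. CIT3, IDP2 and MDH2 as higher, and IDP1, LSC2, MDH3 and PYC2 as lower, were the 7 that held at 360 min. The filter on dim genes left out CIT3, IDP3 and MLS1, so these have no value under it.

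**Figure D1:**
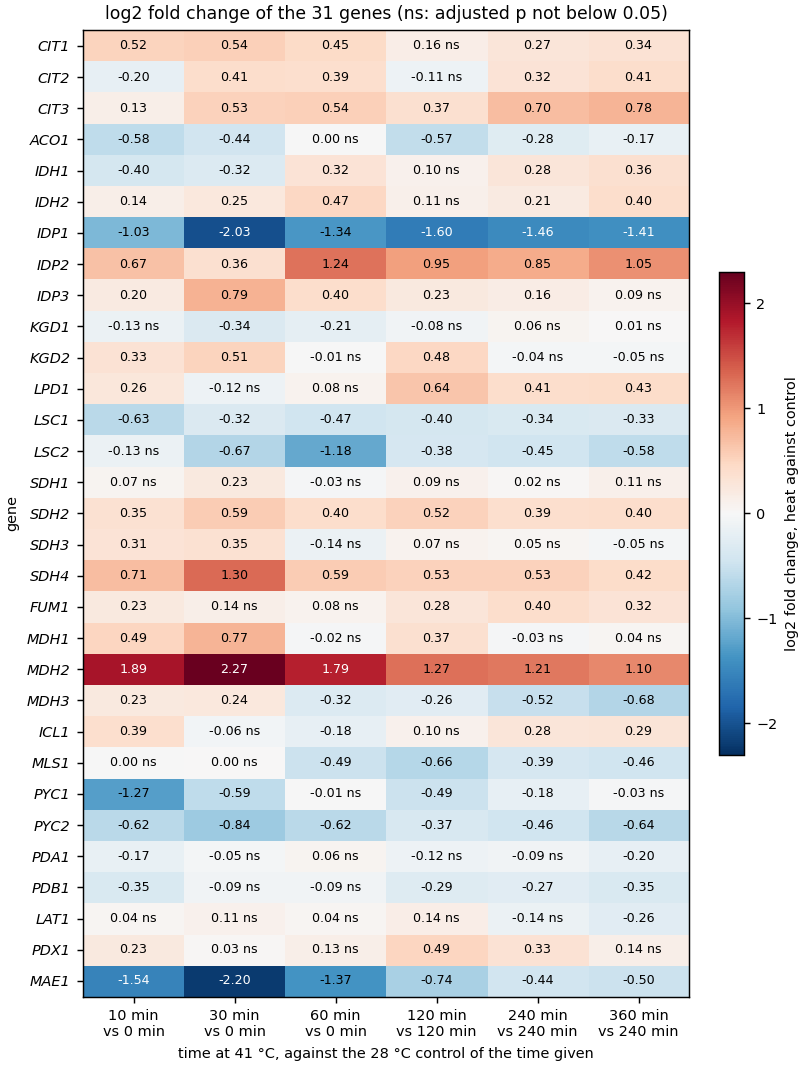
Log2 fold of each of the 31 genes in the 6 comparisons of heat with control, with genes in rows by role and times in columns. The strongest colours belong to MDH2 (up to 2.27), MAE1 (down to -2.20) and IDP1 (down to -2.03), and most other cells lie well under 1 in size.

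Citrate synthase makes the entry step. CIT1, the mitochondrial enzyme, had signals of 5015, 4494 and 5034 at 0 min and 7175, 7079 and 6984 at 10 min, with no overlap, and rose by 0.52 ± 0.08 (adjusted p = 3.35e-06). CIT1 stayed above control by 0.54 at 30 min and 0.45 at 60 min, though with array medians made equal the change at 60 min was 0.20 and did not pass. CIT2, the peroxisomal enzyme of the glyoxylate cycle, went the other way at first, with 5054, 5257 and 5735 at 0 min and 4160, 4917 and 4617 at 10 min, a fall of 0.20 ± 0.06 on the log2 scale (adjusted p = 0.00789). By 30 min the CIT2 signals were 6259, 6462 and 5834, all above the control arrays, and the gene had risen by 0.41 (adjusted p = 2.3e-06). CIT2 is a known target of the retrograde pathway, through which mitochondria signal to the nucleus.

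CIT3, a second mitochondrial citrate synthase, was dim throughout. Its signals were 26, 25 and 34 at 0 min, 75, 74 and 94 at 30 min, and 159, 157 and 179 at 360 min, where the controls at 240 min read 34, 36 and 35. The groups did not overlap from 30 min on, and CIT3 rose by 0.78 ± 0.05 at 360 min (adjusted p = 6.57e-12). All 9 control arrays put CIT3 below the highest non-yeast probe set, so the size of its change is not fixed by these data. The small rise at 10 min (0.13) lost its call when single arrays were left out.

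ACO1, mitochondrial aconitase, fell by 0.58 ± 0.06 at 10 min (adjusted p = 1.24e-08), did not differ detectably at 60 min (-0.00, adjusted p = 0.953) and was lower by 0.57 again at 120 min. Its signals ran from 5691 to 6235 on the control arrays and from 3039 to 5591 in heat, so the ranges did not overlap on the deposited scale. The call at 360 min (-0.17) ended when single arrays were left out and had the opposite sign, 0.040, with the non-yeast signal in the fit.

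The NAD isocitrate dehydrogenase has a regulatory subunit, IDH1, and a catalytic subunit, IDH2, which form one enzyme. They parted early in heat. IDH1 fell by 0.40 ± 0.07 at 10 min (adjusted p = 2.41e-05) and by 0.32 at 30 min while IDH2 rose by 0.14 and 0.25. At 60 min both were higher, IDH1 by 0.32 (adjusted p = 0.000458) and IDH2 by 0.47. The call of IDH2 at 10 min was lost when single arrays were left out, that at 30 min on the deposited scale (0.04) and with equal medians (0.03), and that of IDH1 at 60 min with equal medians (0.11).

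The NADP isocitrate dehydrogenases make NADPH in mitochondria (IDP1), cytosol (IDP2) and peroxisomes (IDP3), and they moved in opposite directions. IDP1 had signals of 3661, 3268 and 3765 at 0 min, 1667, 1754 and 1261 at 10 min, and 702, 719 and 699 at 30 min. No heat array reached a control array at any time. IDP1 was lower by 1.03 ± 0.07 on the log2 scale at 10 min (adjusted p = 3.08e-12), and at 30 min it was 4.08-fold lower (log2 fold -2.03, adjusted p = 3.71e-18). It regained part of this between 30 and 60 min (0.69 ± 0.07, adjusted p = 5.25e-09) and then stayed low, with 1265, 1358 and 1232 at 360 min against 3704, 3534 and 3660 in the controls at 240 min, a 2.66-fold lower level.

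IDP2 read 302, 307 and 325 at 0 min, 607, 547 and 527 at 10 min, 419, 456 and 436 at 30 min, and 1006, 1014 and 1004 at 60 min. Every heat array lay above every control array. The gene rose by 0.67 ± 0.07 at 10 min, by 0.36 at 30 min (adjusted p = 3.66e-05) and 2.36-fold at 60 min (log2 fold 1.24, adjusted p = 1.75e-13), so the course had a dip: 60 min exceeded 30 min by 0.88 (adjusted p = 6.24e-11). At 360 min IDP2 was at 791, 1034 and 980 and still 1.05 above control (adjusted p = 6.15e-12).

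IDP3 was near background on the control arrays, at 69 to 83, and peaked at 30 min with 199, 165 and 234. It rose by 0.79 ± 0.06 there (adjusted p = 1.02e-11) and did not pass the test at 360 min (0.09). Its later changes turned negative with the non-yeast signal in the fit, to -0.10 at 120 min and -0.14 at 240 min.

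In the 2-oxoglutarate dehydrogenase complex, which makes succinyl-CoA, KGD1 (the dehydrogenase) fell by 0.34 ± 0.07 at 30 min (adjusted p = 8.01e-05) whereas KGD2 (the succinyltransferase) rose by 0.51 ± 0.14 (adjusted p = 0.00219). KGD2 was again higher at 120 min, by 0.48 (adjusted p = 0.00486), but 1 control array at 120 min read 990 against 2103 and 2056 for the others. Without that array the change was 0.18 and still passed, and with all arrays the call ended when the fit held only the groups compared. LPD1, the dihydrolipoamide dehydrogenase shared with the pyruvate dehydrogenase complex, rose by 0.64 ± 0.11 at 120 min (adjusted p = 2.01e-05). With the non-yeast signal in the fit neither KGD2 at 30 min (0.34) nor LPD1 at 120 min (0.39) passed.

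Succinyl-CoA ligase, the step that yields a nucleoside triphosphate, has the subunits LSC1 and LSC2, and both fell. LSC1 was lower in all 6 comparisons, most at 10 min (-0.63 ± 0.06, adjusted p = 4.43e-09), although its calls at 30, 120, 240 and 360 min ended with the non-yeast signal in the fit. LSC2 fell later. Its signals were 1595, 1502 and 1731 at 0 min, 1578, 1356 and 1358 at 10 min, 935, 944 and 957 at 30 min, and 824, 636 and 659 at 60 min. Only the 10 min arrays overlapped the control arrays among these (-0.13, adjusted p = 0.17), and at 60 min LSC2 was 2.26-fold lower (log2 fold -1.18 ± 0.09, adjusted p = 3.01e-11). LSC2 regained 0.79 between 60 and 120 min (adjusted p = 4.2e-07) and remained below control at 360 min, by 0.58 on the log2 scale.

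Succinate dehydrogenase couples the cycle to the respiratory chain through a flavoprotein subunit (SDH1), an iron-sulfur subunit (SDH2) and membrane anchors (SDH3 and SDH4). SDH4 moved most. It read 1787, 2225 and 2092 at 0 min, 3578, 4081 and 2905 at 10 min, and 5249, 5254 and 3646 at 30 min, with all heat arrays above the controls, and was 2.45-fold higher at 30 min (log2 fold 1.30 ± 0.10, adjusted p = 4.43e-11). SDH2 rose by 0.59 ± 0.08 at 30 min (adjusted p = 1.88e-07) and stayed 0.39 to 0.52 above control from 120 min on. SDH3 rose at 10 and 30 min (0.31 and 0.35) and at no later time, and SDH1 passed only at 30 min (0.23). On the deposited scale the changes at 30 min were 0.17 for SDH3 and 0.07 for SDH1, and neither passed. With array medians made equal, SDH4 no longer passed at 120 min (0.30) and 360 min (0.20), nor SDH2 at 240 min (0.20) and 360 min (0.18).

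**Figure D2:**
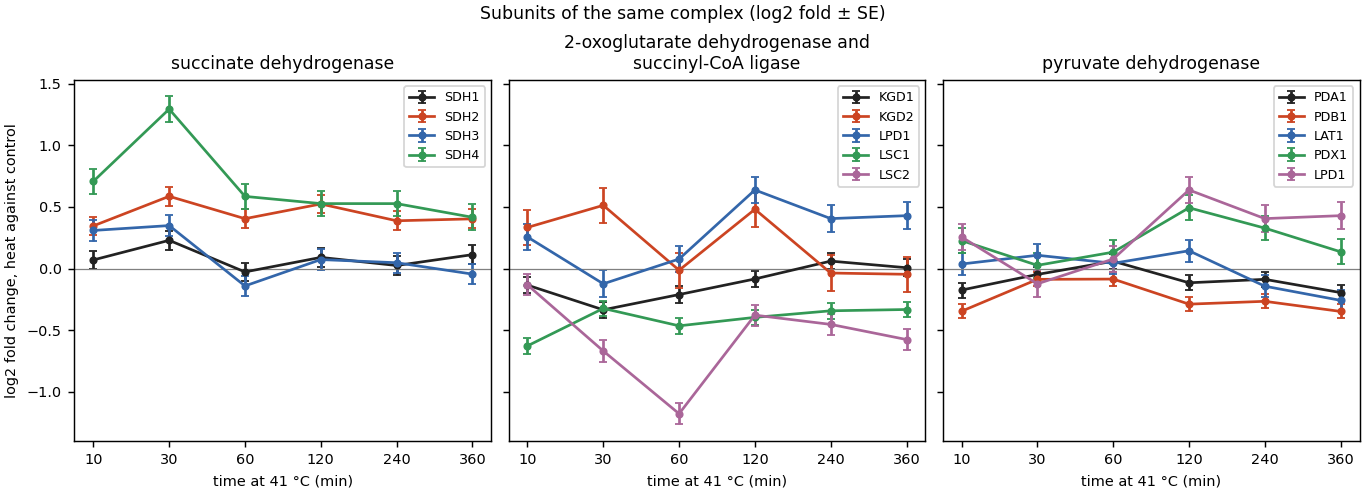
Log2 fold ± SE of heat against control (vertical) for the subunits of succinate dehydrogenase, 2-oxoglutarate dehydrogenase with succinyl-CoA ligase, and pyruvate dehydrogenase, over the 6 heat times (horizontal, in min, spaced equally). SDH2 and SDH4 lie above 0 at every time, LSC1 and LSC2 below 0, and the lowest point is LSC2 at 60 min (-1.18).

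FUM1, fumarase, showed modest rises, of 0.23 at 10 min and 0.40 ± 0.09 at 240 min (adjusted p = 0.000388), neither of which passed on the deposited scale (0.20 and 0.26). The malate dehydrogenases interconvert malate and oxaloacetate in mitochondria (MDH1), cytosol (MDH2) and peroxisomes (MDH3). MDH2, the cytosolic enzyme used in gluconeogenesis, gave the largest rise among the 31 genes. Its signals were 669, 749 and 712 at 0 min, 3238, 3246 and 2848 at 10 min, and 4056, 3665 and 3146 at 30 min, far above the controls. MDH2 was 4.82-fold higher at 30 min (log2 fold 2.27 ± 0.12, adjusted p = 1.88e-14). The signals then declined to 2618, 1792 and 2068 at 120 min and to 1561, 1544 and 1437 at 360 min, which was still 2.14-fold above the controls at 240 min (adjusted p = 5.00e-08), whose arrays read 555, 681 and 622.

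MDH1 passed as higher at 10, 30 and 120 min, the last of these not with equal medians (0.18). It had 2259, 2069 and 2476 at 0 min and 3599, 3833 and 3243 at 30 min, without overlap, a rise of 0.77 ± 0.11 (adjusted p = 8.25e-07), and fell back by 0.80 between 30 and 60 min (adjusted p = 9.05e-07). MDH3 changed sign. It read 1135, 1134 and 1168 at 0 min and 1385, 1424 and 1306 at 10 min, a rise of 0.23 (adjusted p = 0.00114), but 779, 835 and 856 at 360 min against 1261, 1241 and 1337 in the controls, a fall of 0.68 ± 0.06 on the log2 scale (adjusted p = 8.3e-10). The fall of MDH3 from 60 min on held in every alternative that was run.

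The 2 enzymes particular to the glyoxylate cycle did not move together. ICL1, isocitrate lyase, rose at 10 min, where its arrays read 376, 333 and 357 against 223 to 276 over all control arrays (0.39 ± 0.07, adjusted p = 1.07e-05), and was also higher at 240 min, with 383, 349 and 422. In between, at 60 min, ICL1 was lower by 0.18, a call that ended when single arrays were left out. MLS1, malate synthase, read 118, 126 and 100 at 120 min against 179 to 247 on the control arrays and fell by 0.66 ± 0.07 (adjusted p = 1.23e-08). MLS1 was near background, and its calls at 60, 240 and 360 min ended with the non-yeast signal in the fit.

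Pyruvate carboxylase refills oxaloacetate in the cytosol. PYC1 fell at once, from 3838, 3618 and 3962 to 1316, 1604 and 1205 at 10 min, 2.41-fold lower (log2 fold -1.27 ± 0.06, adjusted p = 1.29e-14). By 60 min its signals of 3510, 3520 and 3856 overlapped those at 0 min (-0.01, adjusted p = 0.907). PYC1 was lower again at 120 min, with 2870, 2448 and 2741 against 3718, 3890 and 3698 in the controls (-0.49 ± 0.06, adjusted p = 4.47e-07). At 240 min the log2 change was -0.18, a call lost when single arrays were left out. PYC2, its close paralog, fell in all 6 comparisons, from 2501, 2190 and 2501 at 0 min to 1303, 1179 and 1101 at 30 min (-0.84 ± 0.07, adjusted p = 2.56e-11), and was at 1591, 1768 and 1749 at 360 min, below all controls. Cross-hybridization between such paralogs was not tested.

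MAE1, the mitochondrial malic enzyme that turns malate into pyruvate, fell most of the 31 genes. Its signals were 2281, 2091 and 2758 at 0 min, 625, 883 and 579 at 10 min, and 403, 428 and 357 at 30 min, 4.59-fold lower (log2 fold -2.20 ± 0.13, adjusted p = 1.03e-13). They climbed to 985, 849 and 834 at 60 min and 1493, 1585 and 1633 at 120 min, and at 360 min they read 1573, 2414 and 1997 against 2759, 2858 and 3131 in the controls (-0.50, adjusted p = 0.00164). The late calls depended on the terms and arrays in the fit. With the non-yeast signal as a term MAE1 did not pass at 120 min (-0.48), 240 min (-0.19) or 360 min (-0.21). Without replicate 2 at 240 min the change there was -0.29 and did not pass.

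**Figure D3:**
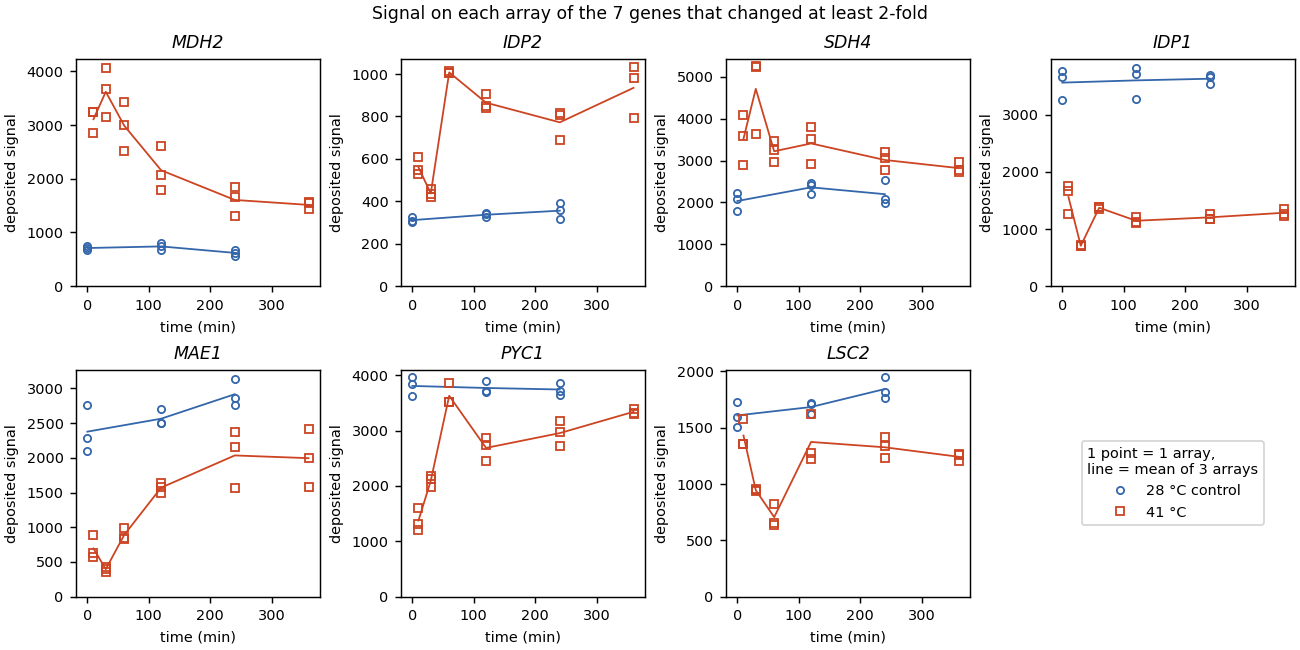
Deposited intensity (vertical, linear from 0) against time in min for the 7 genes with a fitted change of at least 2-fold. There is 1 point per array, with circles for 28 °C, squares for 41 °C and lines through the means of 3 arrays. MDH2 is highest at 30 min (3146 to 4056 against 669 to 749 at 0 min), and IDP1 and MAE1 are lowest there (699 to 719 and 357 to 428).

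No subunit of the pyruvate dehydrogenase complex changed by 2-fold, and the subunits moved in different directions: PDB1 passed as lower at 4 of 6 times, PDA1 at 2 and LAT1 at 1, while PDX1 passed as higher at 3 and the shared LPD1 at 4. PDB1 (the E1 beta subunit) fell by 0.35 ± 0.06 at 10 min (adjusted p = 7.74e-06) and by 0.35 at 360 min (adjusted p = 1.18e-05). PDA1 (E1 alpha) was lower at 10 min (-0.17, a call lost when single arrays were left out) and 360 min (-0.20, adjusted p = 0.00718), and LAT1 (the acetyltransferase) only at 360 min (-0.26, adjusted p = 0.0129). PDX1, which anchors the dihydrolipoamide dehydrogenase to the complex, rose by 0.49 ± 0.10 at 120 min (adjusted p = 0.000147). With the non-yeast signal in the fit the calls of PDB1 (-0.19) and LAT1 (-0.13) at 360 min and PDX1 at 120 min (0.02) ended. The changes of PDX1 at 240 min and PDA1 at 360 min took the opposite sign in that fit (-0.12 and 0.023).

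Balance between isozymes was followed as the log2 ratio of their signals within each array. Such a ratio compares probe sets that may respond differently, so only its change was read, and with 3 arrays against 3 the exact two-sided permutation test cannot go below p = 0.1. Of 42 changes (7 pairs at 6 times) 33 reached that value, adjusted p = 0.127, and none could pass 0.05. Reaching it means only that the 2 groups did not overlap, which was common on these arrays. Among single genes 70.6%, 80.4%, 72.5%, 70.5%, 70.8% and 74.6% of all tested did not overlap, in the order of time. Of the 31 members 21, 22, 21, 25, 22 and 25 did not. Ratios of other gene pairs were not tested. IDP2 over IDP1 shifted by 1.70 ± 0.09 at 10 min, 2.39 at 30 min and 2.58 at 60 min, a 5.98-fold shift, and stayed at 2.46 at 360 min. IDP3 over IDP1 shifted by up to 2.82 at 30 min, with IDP3 near background in the controls. The sign of these shifts follows from the fall of IDP1 together with the rises of IDP2 and IDP3 given above.

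MDH2 over MDH1 shifted by 1.41 ± 0.18 at 10 min, 1.81 at 60 min and 1.06 at 360 min, and MDH3 over MDH1 by -0.26 ± 0.12 at 10 min and -0.71 at 360 min. CIT2 over CIT1 was lower by 0.72 ± 0.12 on the log2 scale at 10 min (change -0.72) and within its SE of 0 at 60, 240 and 360 min. PYC2 over PYC1 turned round, from 0.65 ± 0.07 at 10 min to -0.61 at 60 min and -0.61 at 360 min, with 0.12 at 120 min between them. CIT3 over CIT1 had no settled sign at 30 and 60 min, where it changed with the scaling or the offset. With the offset that was added before the log, it shifted by -0.39 ± 0.12 at 10 min, without overlap of the groups. The mean deposited signals at 0 and 10 min were 28.3 and 40.0 for CIT3 and 4848 and 7079 for CIT1. The shift at 10 min thus rested largely on the offset. At 240 and 360 min the shifts were 0.43 and 0.44, without overlap of the groups. CIT3 was dim, so the sizes of these shifts and the sign at 10 min are not fixed by these data.

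**Figure D4:**
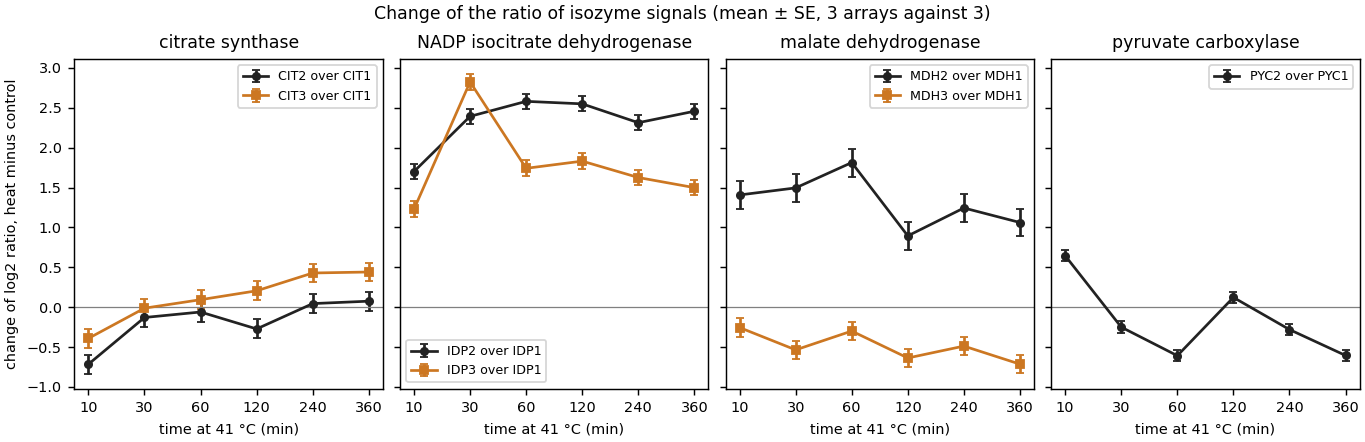
Change of the log2 ratio of 7 isozyme pairs against control over the 6 heat times, spaced equally, with SE. IDP2 over IDP1 stays between 1.70 and 2.58, and PYC2 over PYC1 crosses 0 (0.65 at 10 min, -0.61 at 60 min).

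Growth at 28 °C left these genes without a call. None of the 31 passed at 120 or 240 min of control growth against 0 min (0 and 0.0707% of all genes passed in limma), and none had an unadjusted p under 0.05, a level that 97 and 220 of all genes reached. Between successive heat times 18 members passed from 10 to 30 min, 10 higher and 8 lower (59.5% of all genes passed, 33.5% higher and 26% lower). From 30 to 60 min 20 passed, 8 higher and 12 lower (71.6%, 32.2% and 39.4%). From 60 to 120 min 22 passed, 10 higher and 12 lower (34%, 18.3% and 15.7%), and from 120 to 240 min 7 passed, 6 higher and 1 lower (21%, 10% and 11%). On the deposited scale these splits were 5 and 8, 12 and 7, 6 and 6, and 2 and 2, and with equal medians 5 and 9, 9 and 9, 6 and 11, and 3 and 1. None passed from 240 to 360 min (8.1%), where 5 members and 1358 of all genes had an unadjusted p under 0.05. CIT2, ACO1, IDH1 and PYC1 passed as lower from 60 to 120 min and as higher from 120 to 240 min, a group singled out after its values were seen. On the deposited scale the later step of ACO1 (0.19), IDH1 (0.15) and PYC1 (0.13) did not pass, nor did the earlier step of IDH1 (-0.23). CIT2 fell by 0.55 and then rose by 0.40, and ACO1 fell by 0.54 in the first of these steps. A direct test of the heat effect at 240 min minus that at 120 min was added after other results were known. It passed for 5 members (10.6% of all genes). CIT2, CIT3, ACO1 and PYC1 had a higher and MDH3 a lower value at 240 min. The test used the same heat arrays at 120 and 240 min, so it is not separate support for the group singled out above. Only CIT3 kept its call in every alternative that kept the gene.

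Neighbouring genes of the pathway were counted in lists, to be read against the 72.5%, 80.9%, 69.2%, 68.9%, 61.3% and 65.8% of all genes that passed, in the order of time. Of 14 regulators 7, 8, 5, 7, 4 and 6 rose and 2, 2, 4, 2, 4 and 2 fell at these times. The largest changes were rises of SIP4 (2.12 at 30 min), CAT8 (1.77 at 10 min) and HAP4 (1.75 at 10 min): CAT8 and SIP4 act on gluconeogenic genes, and HAP4 is the activating subunit of the Hap complex of respiratory genes. Among 5 measured paralogs of members 3, 4, 3, 3, 3 and 2 rose and 0, 1, 1, 1, 1 and 1 fell. YJL045W, a relative of SDH1, rose by 3.35 at 60 min, DAL7, a relative of MLS1, fell by 2.30 at 60 min, and SHH3, a relative of SDH3, rose by 1.91 at 30 min.

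Of 9 genes of succinate dehydrogenase assembly and lipoylation 7, 7, 4, 6, 4 and 2 rose and 2, 2, 3, 1, 2 and 2 fell in the same order. SDH6 rose by 2.55 and SDH5, which attaches the flavin to SDH1, by 1.36 at 30 min, while GCV3, a lipoylated glycine cleavage protein, fell by 2.23 at 360 min. Of 13 mitochondrial carriers 3, 4, 2, 2, 2 and 1 rose and 6, 8, 10, 10, 5 and 5 fell. YHM2, a citrate and oxoglutarate carrier, fell by 2.66 at 30 min, ODC2, an oxodicarboxylate carrier, fell by 2.28 at 30 min, and CTP1, the citrate carrier, fell by 2.07 at 10 min. Of 11 genes of acetyl-CoA supply and gluconeogenesis 5, 6, 5, 6, 7 and 5 rose and 1, 2, 2, 5, 2 and 3 fell. ADH2, the ethanol-consuming dehydrogenase, rose by 2.37 at 240 min, ACH1, a CoA transferase, by 1.43 at 30 min, and ALD6, the cytosolic aldehyde dehydrogenase, fell by 1.87 at 60 min.

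Of 4 kinases and phosphatases of pyruvate dehydrogenase 2, 3, 1, 0, 1 and 1 rose and 0, 0, 1, 0, 1 and 1 fell in the order of time, and PKP2, a kinase, rose by 0.98 at 30 min. Of 5 genes that link 2-oxoglutarate to glutamate 1, 1, 1, 2, 2 and 2 rose and 2, 3, 2, 2, 1 and 1 fell. GDH3, a glutamate dehydrogenase, rose by 2.34 at 360 min, GLT1, glutamate synthase, fell by 1.61 at 30 min, and GLN1, glutamine synthetase, fell by 1.19 at 10 min.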

How the data were processed

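Total RNA of 27 yeast samples was hybridised to one-colour Affymetrix arrays. The deposited values are linear intensities per probe set, which the authors made with MAS5, as the submitters' processing notes state; the scaling target is not given in the sources used here. Values stop at a floor of 20, reached by 3.69% to 5.30% of an array's probe sets. Of 9335 probe sets 60 are array controls, 6504 name 1 gene, 328 several and 2443 none. The brightest probe set was kept for each of 315 genes with several, which left 5656 genes. Array medians over them ran from 441.7 to 566.4, so intensities were quantile normalized, and log2(value + 113.8) was taken, so folds of dim genes come out too small.

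Group means were fitted over all arrays together (limma 3.58.1 under R 4.3.3, eBayes with a trend), with Benjamini-Hochberg adjustment over all 5656 genes. Values were named per array for members with a 2-fold change and for isozyme pairs, and related genes by the 3 largest changes per list. The members and lists were chosen with earlier results of these data known. Alternatives changed the scaling, offset, filter on dim genes, arrays in the fit, control, block and each array in turn, and a term for the non-yeast signal was added. The fit was tested on simulated data. The number of arrays limits the precision. Same-numbered samples within a temperature were taken from 1 culture per the labels' protocols, and deviations of such pairs correlated with a median r of 0.125 in heat and -0.093 in controls. Each of 3 fits with a block gained 3 calls of members and lost 0. ACO1 from 10 to 30 min and MDH2 from 120 to 240 min were gained in all 3, IDH2 from 240 to 360 min with the replicate number or the culture as a random block, and CIT1 at 120 min against control with the number within temperature (adjusted p = 0.0453).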

Additional observations from a re-analysis of the deposited data

Results flagged for a closer look

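For 5 members the effect of heat at 240 min differed from that at 120 min, each against the control of its own time, in a limma test of the difference itself that was added after other results were known (10.6% of all genes passed it). The difference was 0.43 ± 0.09 for CIT2 (adjusted p = 0.00332), 0.34 ± 0.07 for CIT3 (adjusted p = 0.00431), 0.29 ± 0.09 for ACO1 (adjusted p = 0.0349) and 0.31 ± 0.09 for PYC1 (adjusted p = 0.0297), all higher at 240 min. For MDH3 it was -0.26 ± 0.08 (adjusted p = 0.0461). CIT3 kept its call in every alternative that was run except the filter on dim genes, which leaves it out, and CIT2 lost its call on the deposited scale (0.32). The calls of ACO1, MDH3 and PYC1 ended when single arrays were left out.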

How the results depend on the processing

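With the non-yeast signal as a term, 13 members instead of 24 passed at 240 min and 14 instead of 23 at 360 min. From 60 to 120 min 12 instead of 22 passed on the deposited scale. From 120 to 240 min 4 instead of 7 passed on the deposited scale, with equal medians, and with only the groups compared. From 240 to 360 min, where 0 had passed, 1 passed without dim genes, 1 with the replicate block, 1 with the culture as a random block and 5 with the non-yeast term, and leaving out 1 array gave 0 to 2. For the difference of the heat effects 3 instead of 5 passed on the deposited scale, 2 with equal medians, 3 without dim genes and 3 with only the groups compared, and leaving out 1 array gave 2 to 7. The replicate block moved no other count of members by over 1.5 times.

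Some changes reversed, and the cause was not tested. With the non-yeast term these were PDX1 at 30 min (-0.34) and 240 min (-0.12), IDP3 at 120 min (-0.10), 240 min (-0.14) and 360 min (-0.27), ACO1 at 360 min (0.040) and PDA1 at 360 min (0.023). With equal medians they were PDA1 at 60 min (-0.21), IDH2 at 240 min (-0.031) and KGD1 at 360 min (-0.30), and on the deposited scale LSC1 (0.071) and SDH2 (0.033) from 30 to 60 min. CIT3 over CIT1 turned at 30 min on the deposited scale (0.092), with equal medians (0.13) and without the offset (1.08), with -0.062 to 0.044 when 1 array was left out, and at 60 min with the offset doubled (-0.11). CIT2 over CIT1 ran from -0.12 to 0.0096 at 60 min and from -0.021 to 0.13 at 240 min when 1 array was left out. The filter on dim genes left 28 of the 31 members.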
